A study of Homo sapiens with 6 samples.

Results

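The 10 genes described here are the 6 members of the CCN family (CCN1 to CCN6) and 4 further genes, ANKRD1, AMOTL2, AJUBA and LATS2, which are known transcriptional targets of the Hippo pathway effectors YAP and TAZ. They were chosen from names, with the fall of CCN2 under celecoxib already known, and each was read from the transcript cluster that the array annotation assigns to that symbol alone. All 10 were measured, each by 1 cluster, among 18417 genes in all. The cells were AGS, an established human gastric carcinoma line. Control cells received no drug per the labels, and treated cells received 20 µM celecoxib, an inhibitor of cyclooxygenase-2, for 24 h after 48 h of growth, with 3 arrays per group. Celecoxib came from a stock in DMSO, a solvent that the labels do not mention for the controls. The labels call the arrays biological replicates and also mention pooling after the RNA check, so the spread between arrays may be partly technical. Since the study has a single line and a single dose, it cannot show whether other gastric cells respond alike.

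CCN proteins are secreted, cysteine-rich matricellular proteins that sit in the extracellular matrix and signal through integrins and other surface receptors. CCN1 (formerly CYR61) and CCN2 (formerly CTGF) are standard readouts of YAP and TAZ, which are held in the cytoplasm by the Hippo kinases MST and LATS and otherwise bind TEAD transcription factors in the nucleus. The same promoters also respond to serum response factor (SRF) with its actin-sensing cofactors MRTF, and to TGF-beta through SMAD proteins. AMOTL2, AJUBA and LATS2 are targets that act back on the pathway.

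Of the 10 genes, 4 were lower in every celecoxib array than in every control array. These were CCN2, CCN1, AJUBA and ANKRD1, at 2.24-fold, 1.58-fold, 1.51-fold and 1.50-fold lower by the difference of means. CCN3, CCN4, CCN5, CCN6, AMOTL2 and LATS2 overlapped between the groups, with differences between -0.20 and 0.09 on the log2 scale. In the limma fit over all genes, 1 of the 10, CCN2, was past an adjusted p of 0.05 (12 of all genes, 0.0652%, were past it and lower). The groups did not overlap, with lower celecoxib values, in 7.95% of all genes. Because the genes were chosen with this contrast in view, that count is set beside its background only and supports nothing, and the members' differences are given as a description. The count of 1 was 0 when any array other than control 3 was left out.

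RefSeq promoter sequences (250 bases before to 50 after a start given in that table, build GRCh38.p14) were matched for 6 of the 10, namely CCN2, CCN6, ANKRD1, AMOTL2, AJUBA and LATS2. Sequences for CCN1, CCN3, CCN4 and CCN5 were not used here. For 5 of the 6 this start is the 5′ end of the RefSeq gene record, but for CCN6 it lies inside the record. The CCN6 matches are listed and drawn, but their positions are not comparable with those of the others. Each was searched on both strands for GGAATG, the core motif bound by TEAD factors, since these factors carry YAP and TAZ to DNA. The 250 bases before the start are printed 5′ to 3′ on the gene's strand for CCN2, ANKRD1 and AJUBA, the genes with a matched promoter that were lower in every celecoxib array. Capitals mark matches to GGAATG.
CCN2 (chr6:131951373-131951622, minus strand): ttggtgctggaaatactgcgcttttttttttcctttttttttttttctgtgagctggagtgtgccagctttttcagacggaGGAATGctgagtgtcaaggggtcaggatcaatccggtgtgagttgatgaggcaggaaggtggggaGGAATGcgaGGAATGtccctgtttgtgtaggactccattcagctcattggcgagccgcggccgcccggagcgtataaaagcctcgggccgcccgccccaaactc
ANKRD1 (chr10:90921088-90921337, minus strand): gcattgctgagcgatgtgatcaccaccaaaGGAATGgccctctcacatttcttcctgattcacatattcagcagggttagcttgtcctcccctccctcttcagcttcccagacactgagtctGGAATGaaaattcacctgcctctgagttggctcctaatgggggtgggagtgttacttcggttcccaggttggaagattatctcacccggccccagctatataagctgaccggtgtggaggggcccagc
AJUBA (chr14:22982552-22982801, minus strand): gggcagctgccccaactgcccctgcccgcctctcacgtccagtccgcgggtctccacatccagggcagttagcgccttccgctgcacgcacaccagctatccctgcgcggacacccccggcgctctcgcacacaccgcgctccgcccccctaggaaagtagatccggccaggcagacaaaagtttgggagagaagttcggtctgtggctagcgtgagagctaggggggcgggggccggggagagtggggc

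CCN2 held 3 matches, beginning 169, 104 and 95 bases before the start, with a TATAAA box 32 bases before it. ANKRD1 held 2, beginning 220 and 128 bases before the start, and a match to the AP-1 motif TGANTCA 195 bases before it. The CCN6 window, inside its gene record, held 2. LATS2 held 1 match, beginning at base 10 of the transcript, and AMOTL2 and AJUBA held none in this window. Of 27305 RefSeq promoters of the same length, 14% held at least 1 GGAATG, 1.37% at least 2 and 0.146% at least 3. TATAAA was present in 12% of them and TGANTCA in 7.76%. The CArG box of SRF, in 1.29% of all promoters, was not matched in these 6 windows. GC content was 54.3% in CCN2, 52.7% in ANKRD1, 67.7% in both AJUBA and LATS2. AJUBA, with no match in this window, differed by -0.59 on the log2 scale. A match is a description of letters and does not show binding.

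**Figure D1:**
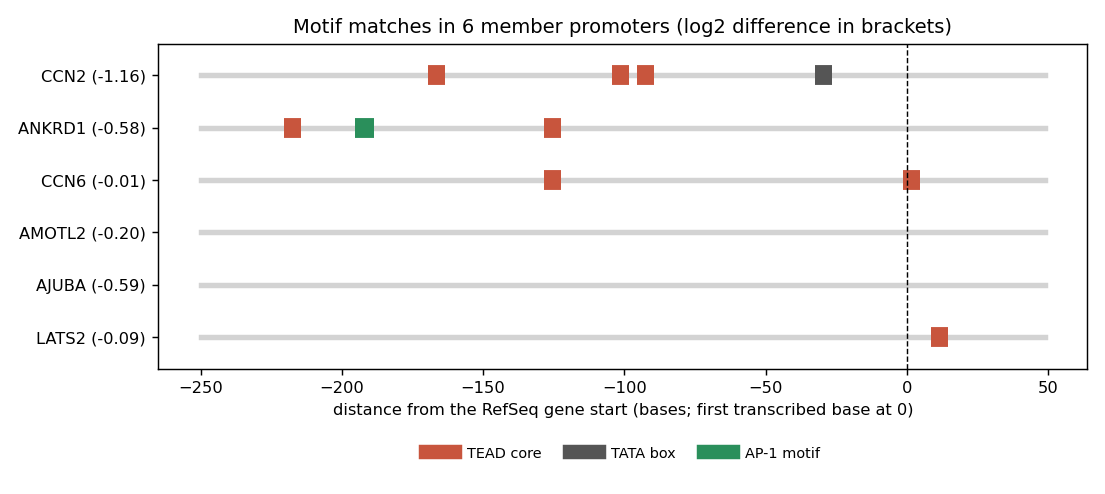
Positions of motif matches in the promoters of 6 genes, in bases from the RefSeq gene start (x axis, first transcribed base at 0), with each gene's log2 difference, celecoxib minus control, in brackets. Red boxes are the TEAD core motif, green the AP-1 motif and dark grey the TATA box. CCN2 has 3 red boxes, ANKRD1 and CCN6 2 each, LATS2 1, and AMOTL2 and AJUBA none. For CCN6 the x axis counts from a start inside its gene record, so its positions are not comparable with those of the others.

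CCN2 and CCN1 are the CCN members most used as reporters of YAP and TAZ, and both promote adhesion and matrix remodelling. CCN2 read 10.06, 10.20 and 9.73 in controls 1 to 3 and 8.84, 8.86 and 8.81 in celecoxib arrays 1 to 3 (log2 expression). The celecoxib values lay within 0.05 of each other, and the lowest control stood clear above them. The difference was -1.16 ± 0.12 (log2, SE, n = 3 per group), the lowest of all 18417 genes. CCN1 read 7.41, 7.17 and 7.13 in the controls and 6.35, 6.74 and 6.63 with celecoxib. Celecoxib 1 was the lowest array for CCN1, and the difference was -0.66 ± 0.12, place 15 from the bottom over all genes. CCN1 was near the middle of the array's signal range, where the median of all clusters was 6.785. Its celecoxib values all lay below that median, and whether they were above background could not be set without scanner files. Without celecoxib 1, the CCN1 difference was -0.55 and the CCN2 difference -1.16.

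The other CCN genes did not separate the groups. CCN3 (formerly NOV), which is known to oppose CCN2 in fibrotic settings, read 6.64, 6.67 and 6.35 in the controls and 6.62, 6.67 and 6.63 with celecoxib. Control 3 alone was low, and the 95% interval of the difference ran from -0.13 to 0.31. CCN4 (formerly WISP1), a WNT1-inducible member, averaged 6.38 ± 0.03 in control and 6.37 ± 0.13 in celecoxib arrays (log2, SD, n = 3), with an interval from -0.19 to 0.19. CCN5 (formerly WISP2), which lacks the C-terminal module of its relatives, read 7.65, 7.52 and 7.69 in the controls and 7.49, 7.34 and 7.62 with celecoxib. Its difference was -0.14 ± 0.09, with an interval from -0.35 to 0.07, and it was -0.07 without celecoxib 2 and -0.21 without celecoxib 3. CCN6 (formerly WISP3), a gene mutated in a heritable skeletal dysplasia, averaged 5.39 ± 0.05 and 5.38 ± 0.14, with an interval from -0.21 to 0.18. CCN3, CCN4 and CCN6 lay below the median signal of all clusters, and whether they were above background could not be set without scanner files. A measured difference as large as that of CCN1 lay outside the intervals of all 4. For CCN3, CCN4 and CCN6 this cannot exclude such a change of the transcript, since signal at background would not follow it.

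ANKRD1 encodes a cardiac ankyrin repeat protein that works in the nucleus as a cofactor and in muscle binds titin. It read 10.40, 10.36 and 10.56 in the controls and 10.03, 9.75 and 9.80 with celecoxib. All 3 celecoxib arrays were below the lowest control, and the difference was -0.58 ± 0.10 (log2, SE, n = 3 per group), place 28 from the bottom over all genes. Celecoxib 1, the lowest array for CCN1 and AJUBA, was the highest of the celecoxib arrays for ANKRD1.

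AJUBA is a LIM protein of cell junctions that binds and restrains LATS kinases. Its values were 9.05, 9.15 and 8.89 in the controls and 8.12, 8.69 and 8.52 with celecoxib. The groups did not overlap, but celecoxib 1 lay well below the other treated arrays. The difference was -0.59 ± 0.14, and -0.43 without celecoxib 1. AMOTL2, a junctional scaffold that holds YAP in the cytoplasm, read 7.18, 7.29 and 7.20 in the controls and 6.93, 6.93 and 7.20 with celecoxib. Celecoxib 3 reached the controls, so the groups overlapped, and the interval of the difference ran from -0.41 to 0.01. LATS2, the kinase that phosphorylates YAP and TAZ, averaged 7.75 ± 0.15 in control and 7.66 ± 0.10 in celecoxib arrays (log2, SD, n = 3). Its difference was -0.09, with an interval from -0.31 to 0.13, and it ranged from -0.16 without control 3 to -0.015 without control 2, with -0.04 without celecoxib 1 and -0.14 without celecoxib 3.

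**Figure D2:**
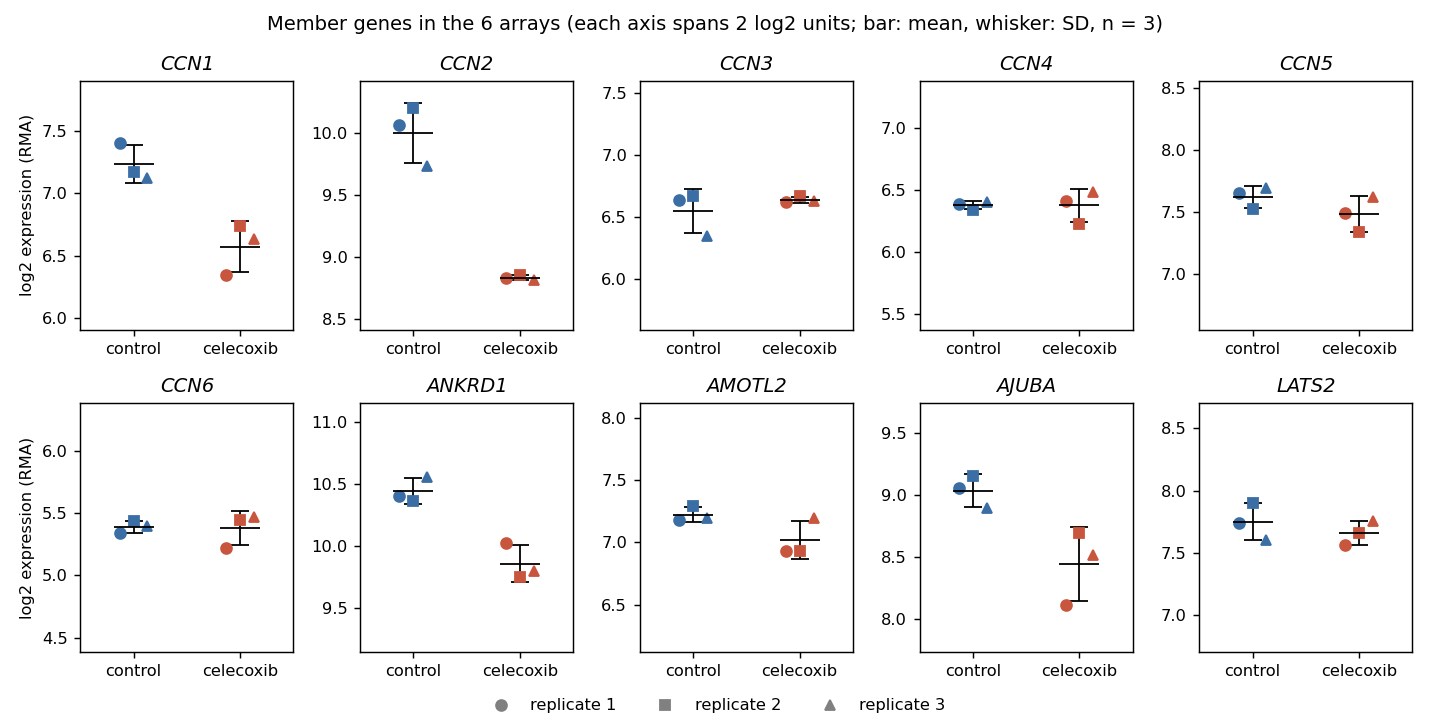
Log2 expression (RMA, y axis) of the 10 genes in 3 control arrays (blue) and 3 celecoxib arrays (red). Marker shapes give the replicate number, the long bar the mean and the whiskers the SD, and every axis spans 2 log2 units. Red and blue points are fully separate for CCN1, CCN2, ANKRD1 and AJUBA and overlap for the rest.

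**Figure D3:**
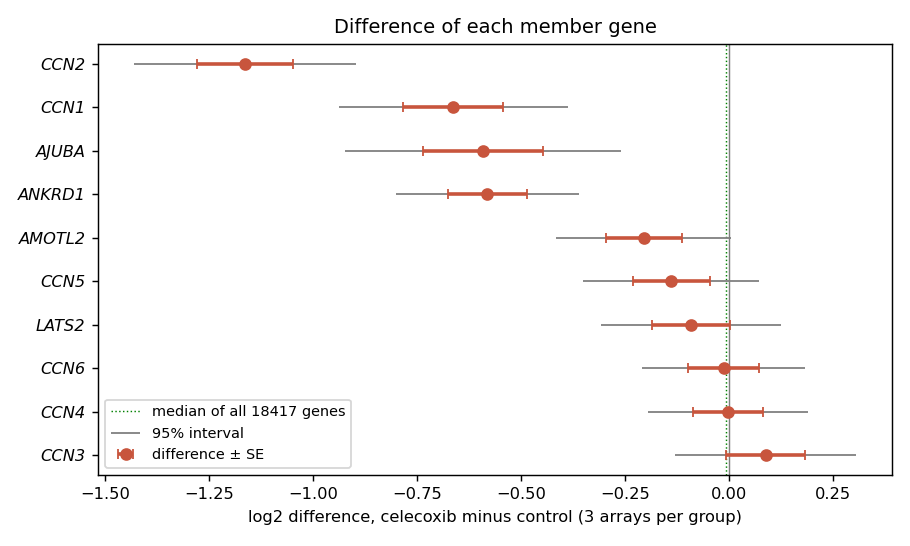
Log2 difference, celecoxib minus control (x axis), of each of the 10 genes, with SE (thick red) and 95% interval (grey) from the fit over all genes, n = 3 arrays per group. CCN2 lies furthest left at -1.16, CCN1, AJUBA and ANKRD1 between -0.66 and -0.58, and the other 6 between -0.20 and 0.09, beside the median of all genes (dotted line, -0.01).

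Before turning to the rest of the pathway, the arrays and the cells were checked. Array medians were 6.805, 6.819 and 6.802 in controls 1 to 3 and 6.75, 6.776 and 6.79 in celecoxib arrays 1 to 3. Each celecoxib median was thus below every control median. Pairs of arrays correlated at 0.985 to 0.996 across clusters. Celecoxib 1 lay furthest out on the first principal component (40.4% of the variance), which did not separate the groups. All 5 measured epithelial markers were above the median signal, and KRT18, KRT8, EPCAM and KRT19 had control means of 12.05, 12.62, 11.88 and 11.20 on the log2 scale. The 5 endothelial markers, 6 of 7 fibroblast markers and 4 of 5 leukocyte markers were below the median. The exceptions were COL1A1, at 7.74 in the controls and 7.61 with celecoxib, and LYZ, which gastric epithelium is also known to express. Summed log2 levels of the 7 fibroblast markers ranged from 39.18 to 39.44 in the controls and from 39.03 to 39.81 with celecoxib, so these groups overlapped. Those of the 5 endothelial markers ranged from 27.27 to 27.44 and from 27.15 to 27.64, and those of the 5 leukocyte markers from 33.71 to 34.96 and from 33.85 to 35.03. For the epithelial markers the range was 55.57 to 55.82 in the controls and 55.19 to 55.33 with celecoxib, and the part of this in the results was not tested. In such bulk samples, fewer cells with a transcript and less transcript per cell cannot be told apart.

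The rest of the pathway and genes related to it were read from 9 lists, with 108 of 114 genes measured and the 10 members left out. Of the 108, 3 passed the limma test over all genes, against 0.141% of all genes (0.0652% lower and 0.076% higher). TAGLN and MYL9 fell, and TTN rose. Celecoxib values were fully separate from the controls in 26 genes that were lower and 6 that were higher, where 7.95% and 11.1% of all genes were so. Of the 26, 12 were on the list of SRF, MRTF and their targets, TAGLN and MYL9 among them. The lists were chosen with earlier results of these data known, including those of TAGLN and MYL9. These counts are therefore set beside their background as a description and support nothing. The median difference over the 108 genes was -0.10 on the log2 scale, beside -0.01 for all genes. In the limma fit, 11.3% of all genes had an unadjusted p under 0.05, and 4.44% had it and were lower. These shares are the background for the counts given with each list below. The count of 3 became 0 whichever of the 6 arrays was left out.

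Upstream in the pathway, 0 of 18 Hippo kinases and scaffolds passed the limma test (1 had an unadjusted p under 0.05, as had 11.3% of all genes), with 9 differences positive and 9 negative and a median of 0.02 (-0.01 without control 2, -0.02 without control 3, 0.04 without control 1, 0.0079 without celecoxib 2, 0.03 without celecoxib 3). WWC2, a scaffold related to KIBRA that activates LATS, had the smallest p, with 8.41, 8.42 and 8.24 in the controls and 7.90, 8.14 and 7.92 with celecoxib (difference -0.37 ± 0.09, limma adjusted p = 0.241). MOB1B, a coactivator of LATS, was next at 0.15 ± 0.08 (limma adjusted p = 0.490) and 0.09 without celecoxib 1.

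Among the effectors, 0 of 10 genes for YAP, TAZ, TEAD and VGLL factors passed the limma test (1 had an unadjusted p under 0.05), with a median of -0.08 (-0.05 without celecoxib 1, -0.04 without control 2). YAP1 itself, named here because it is the effector, read 10.40, 10.61 and 10.28 in the controls and 10.06, 10.54 and 10.39 with celecoxib. Its groups overlapped, and the interval of the difference ran from -0.41 to 0.20. For WWTR1, the gene of TAZ, the interval ran from -0.13 to 0.19. TEAD3, a DNA-binding partner of YAP, differed by -0.31 ± 0.13 (limma adjusted p = 0.421), with celecoxib 1 the lowest array, and by -0.17 without that array. VGLL4, a competitor of YAP for TEAD, differed by 0.15 ± 0.07 (limma adjusted p = 0.442), with all 3 celecoxib arrays above the controls. Transcript levels say nothing of where YAP protein lies in the cell.

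Other YAP and TAZ targets, a list of 17 from a widely used signature, had 16 negative differences and 1 positive, and 0 passed the limma test. In that fit, 3 had an unadjusted p under 0.05, all lower with celecoxib (4.44% of all genes were so). Over all genes, 52.1% of differences were negative. The list median was -0.09, beside -0.17 for the 10 members and -0.01 for all genes. Taken array by array, the median deviation from the control means was -0.11 in each of the 3 celecoxib arrays, while the controls ran from -0.02 to 0.01. CCDC80, a matrix protein, read 6.68, 6.74 and 6.65 in the controls and 6.47, 6.41 and 6.16 with celecoxib (difference -0.34 ± 0.09, limma adjusted p = 0.279). MYOF, a membrane repair protein of the ferlin family, read 11.69, 11.66 and 11.59 and then 11.27, 11.45 and 11.44 (difference -0.26 ± 0.08, limma adjusted p = 0.312). The groups did not overlap in 6 of the 17 genes, all lower with celecoxib (7.95% of all genes were so). The single positive difference was in NT5E, an ecto-nucleotidase named after its value was seen, at 0.17 ± 0.11. Of the 17 genes, 7 lay below the median signal of all clusters, CCDC80 and NT5E among them. Whether these were above background could not be set without scanner files.

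The list of SRF, MRTF and their targets had 16 of 17 measured differences negative and a median of -0.30. SRF and MRTF, not the targets that make up most of the list, are also known to drive CCN1, CCN2 and ANKRD1. TAGLN, the actin-binding transgelin, read 8.37, 8.43 and 8.31 in the controls and 7.51, 7.31 and 6.96 with celecoxib. It fell by 1.11 on the log2 scale (limma adjusted p = 0.0296, SE 0.13). MYL9, a myosin regulatory light chain, fell by 0.66 (SE 0.07, limma adjusted p = 0.0296). The groups did not overlap in 12 of the 17 genes, all lower with celecoxib (7.95% of all genes were so). In the limma fit, 11 had an unadjusted p under 0.05 in that direction (4.44% of all genes). By array, the median deviation from the control means was -0.39, -0.25 and -0.30 with celecoxib and between -0.06 and 0.06 in the controls. Both calls were lost whichever of the 6 arrays was left out, with TAGLN then between -1.24 and -0.96 and MYL9 between -0.71 and -0.62. This list overlaps the contractile cytoskeleton, and earlier results for TAGLN and MYL9 were known when it was chosen.

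The surface receptors of CCN proteins and other matricellular genes were compared next. Of 9 measured CCN receptors 0 passed the limma test (1 had an unadjusted p under 0.05). ITGA5, the alpha chain of the fibronectin receptor, differed by -0.31 ± 0.11 (limma adjusted p = 0.357) and the receptor NOTCH1, a partner of CCN3, by -0.22 ± 0.14 (limma adjusted p = 0.559). Without celecoxib 1 these were -0.20 and -0.09, and without celecoxib 2 NOTCH1 was at -0.37. The receptor list's median deviation was -0.25 in celecoxib 1, but 0.03 and 0.01 in celecoxib 2 and 3, and the median difference of -0.08 became -0.0020 without celecoxib 1. Of 16 other matricellular genes 0 passed (1 had an unadjusted p under 0.05 in the limma fit), and 14 were below the median signal. THBS1, thrombospondin-1 and another known YAP target, read 8.63, 8.67 and 8.42 in the controls and 7.80, 8.16 and 8.20 with celecoxib (difference -0.52 ± 0.12, limma adjusted p = 0.216). FBLN1, fibulin-1, differed by -0.15 ± 0.09 (limma adjusted p = 0.514), and by -0.09 without control 2.

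The relatives and partners of ANKRD1 include titin, to which it binds in muscle. TTN, the gene of titin, read 6.91, 6.92 and 7.05 in the controls and 7.56, 7.53 and 7.48 with celecoxib, and rose by 0.56 ± 0.07 on the log2 scale (limma adjusted p = 0.0369). Of the 7 measured genes of this list, 5 differences were positive (47.9% of all genes were so), with a median of 0.04, and TTN alone passed. In the limma fit, 2 had an unadjusted p under 0.05, both higher (11.3% of all genes in either direction). The groups did not overlap in 2 of the 7, both higher with celecoxib (11.1% of all genes were so). The TTN call was lost whichever of the 6 arrays was left out, with the difference between 0.54 and 0.61, and the list median was -0.03 without celecoxib 1.

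The relatives of AJUBA all had negative differences, 6 of 6 with a median of -0.15, and 0 passed the limma test (1 had an unadjusted p under 0.05). ZYX, zyxin of focal adhesions, read 9.34, 9.56 and 9.07 in the controls and 8.55, 9.10 and 8.92 with celecoxib. Its groups overlapped by a little, with a difference of -0.47 ± 0.16 (limma adjusted p = 0.363). TRIP6, a LIM protein that like AJUBA binds LATS, differed by -0.13 ± 0.07 (limma adjusted p = 0.523), and by -0.08 without celecoxib 1. The median deviation of the list was -0.39 in celecoxib 1 and -0.04 and -0.02 in celecoxib 2 and 3, and the median difference was -0.02 without celecoxib 1 and -0.09 without control 2.

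In the TGF-beta axis, known to induce CCN2, 0 of 8 measured genes passed the limma test (1 had an unadjusted p under 0.05), with a median of -0.11 (-0.06 without celecoxib 1 or without control 2, -0.16 without control 3). SMAD3, the signal transducer that binds DNA, differed by -0.31 ± 0.12 (limma adjusted p = 0.411) and overlapped between the groups. TGFBR1, the type I receptor, differed by -0.15 ± 0.07 (limma adjusted p = 0.461).

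**Figure D4:**
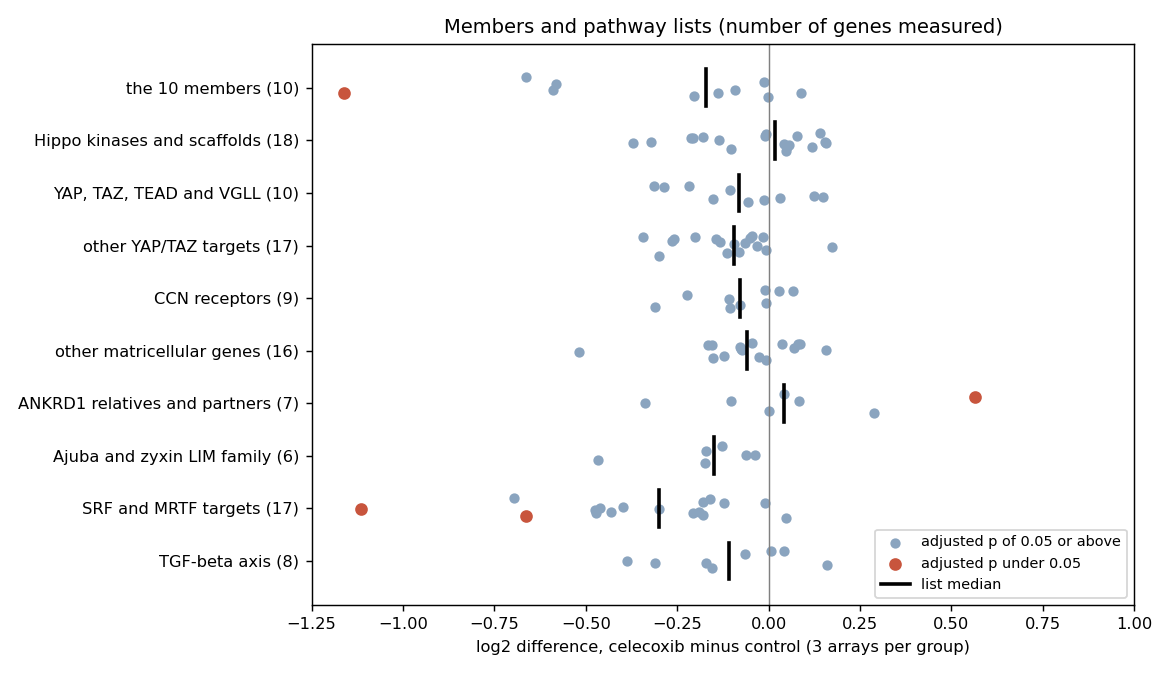
Log2 difference, celecoxib minus control (x axis, 3 arrays per group), of each measured gene of the 10 members and of 9 pathway lists, with list medians as black bars and genes past an adjusted p of 0.05 in red. Red points are CCN2, TAGLN and MYL9 on the left and TTN on the right, and the SRF and MRTF list has the lowest median at -0.30.

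Finally, the genes whose levels over the 6 arrays were most like those of CCN2 and CCN1 were listed among 10873 other genes above the median signal. The 5 nearest to CCN2 by Pearson's r over 6 arrays were DTNB (0.998), LIFR (0.997), KRT18 (0.995), C12orf75 (0.994) and DDB2 (0.994). Those nearest to CCN1 were ANO1 (0.998), TPR (0.994), CTDNEP1 (0.989), MYOF (0.985) and ADAM9 (0.985). MYOF is the only name here that is also on the list of other YAP and TAZ targets. The r of CCN2 with CCN1, ANKRD1 and AJUBA over the same arrays was 0.911, 0.869 and 0.875, and after subtraction of each group's mean it was 0.233, -0.592 and 0.426. These values describe 6 arrays that share the group difference and are given without a test. CCN2 had an SD of 0.02 among celecoxib and 0.24 among control arrays. Its r after subtraction therefore rests mostly on the 3 controls.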

How the data were processed

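Affymetrix HuGene-1_0-st arrays of 6 AGS samples (3 control, 3 celecoxib) were used. The deposited table holds log2 values for 33297 transcript clusters. RMA in Affymetrix Expression Console 1.1 produced these log2 values, per the submitters' processing notes on what the authors did. The sources used here give no settings below the probe set and no slide or scan date, so no batch was tested. Quantile scaling within RMA reduces overall shifts, but small differences between array medians remained, with every celecoxib median below every control median. The number of arrays limits the precision.

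Clusters with exactly 1 symbol in the platform annotation (19460, against 1754 with several and 12083 unnamed here) were kept, and the brightest cluster stood for a gene, giving 18417 genes. A linear model compared the groups with limma 3.58.1 in R 4.3.3, with two-sided Benjamini-Hochberg adjusted p-values over all genes. The fit was tested on simulated data with noise independent between genes and arrays. That test does not cover variation that the genes of an array share. Standard errors and 95% intervals come from this fit. Members and lists were chosen with earlier results of these data known. Named pathway genes are those past the threshold in each list, or otherwise the 2 with the smallest p. Genes most like CCN1 and CCN2 are the 5 with the highest r. Promoters are RefSeq's, matched by symbol. Alternatives tried were averaging a gene's clusters, 2 filters on dim genes, 2 normalizations, another variance prior, array weights, a replicate block and leaving out each array. Figures were drawn with matplotlib 3.10.9.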

Additional observations from a re-analysis of the deposited data

How the results depend on the processing

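All differences of CCN1, CCN2, CCN5, ANKRD1, AMOTL2, AJUBA and LATS2 kept their sign under all 14 alternatives. CCN2 ranged from -1.30 to -1.06, both among the fits that left out 1 array, and ANKRD1 from -0.66 to -0.52. CCN3, CCN4 and CCN6, near 0, changed sign under some, and the filter at the median signal left all 3 out, as the filter on the dimmest 20% did CCN6. The numbers of called genes, members and pathway genes (26, 1 and 3) depended on the setting: 76, 2 and 5 above the median signal, 59 and 2 (genes and members) without the dimmest 20%, 47 genes with cyclic loess, 69, 2 and 5 with an intensity trend and robust prior, and 177, 4 and 9 with array weights. With array weights the 4 members were CCN1, CCN2, ANKRD1 and AJUBA, and in the other cases of 2 they were CCN2 and ANKRD1. The filters test fewer genes, and otherwise the cause was not tested. Leaving out 1 array gave 0 to 5 genes, 0 to 1 members and 0 pathway genes (1293 to 2353 genes had an unadjusted limma p under 0.05). With the replicate number as a block, limma called 0 genes, 0 members and 0 pathway genes (2448 at an unadjusted p under 0.05). Same-numbered arrays deviated from their group means with r of -0.02, 0.49 and 0.01 over genes, where all pairs of a control with a celecoxib array ran from -0.49 to 0.49. The pair numbered 2 was the highest of all these pairs, while those numbered 1 and 3 were near 0. The main fit took the arrays as unpaired, and whether the numbers pair the samples was not settled. The median of the other YAP and TAZ targets (-0.09) was -0.11 under either filter, -0.057 with arrays centred on their medians, and -0.131 to -0.0789 with 1 array left out.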
